A study of Mus musculus with 24 samples.

Results

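The nuclear genes of oxidative phosphorylation were examined, complex by complex, in H3K27Ac ChIP-seq of mouse brain, heart, kidney and liver. The rule took every gene whose symbol begins with Nduf and one of the letters a, b, c, s or v with a number, with Uqcr, Cox5, Cox6b, Cox6c, Cox7b, Cox7c, Cox8c or Atp5, or is Sdha, Sdhb, Sdhc or Sdhd. It found 82 of the 27179 genes in the table and used no measured value. By role, 71 of the 82 are nuclear subunits of the respiratory chain and ATP synthase: 35 of complex I, 4 of complex II, 8 of complex III, 7 of complex IV and 17 of complex V. Ndufa4 carries a complex I name and is counted here in complex IV, where its protein is a subunit. The other 11 are the testis isoforms Cox6b2, Cox7b2 and Cox8c, the Ndufa4 paralog Ndufa4l2, and 7 copies of subunit genes (Ndufa11b, Ndufb4b, Ndufb4c, Ndufs5-ps, Ndufs6b, Uqcrh-ps1 and Atp5c1-ps).

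The organs were either formalin-fixed and paraffin-embedded (FFPE) or flash frozen (Frozen), and the 8 groups are FFPE brain, heart, kidney and liver and Frozen brain, heart, kidney and liver. Per the labels' protocols, FFPE tissue was freed of paraffin and its chromatin extracted with heat, Frozen tissue was crosslinked with formaldehyde after coring, and both were sheared by ultrasound before immunoprecipitation. The labels name 16 H3K27Ac samples, 2 per group, and 8 inputs, but the table holds 1 column per group with no replicate number, so each group is 1 library here and no input was analysed here. The sources used here do not give strain, age, sex or the number of animals. Values are log2 CPM, the log2 of a gene's count scaled to the authors' library size (CPM), so that a difference of 1 is a 2-fold change. Differences were tested with limma on the whole table of 26944 genes with a count, and a gene was called at a Benjamini-Hochberg adjusted p under 0.05. Each organ was set against the mean of the other 3 organs, and FFPE against Frozen across organs. The 4 organ differences of a gene are therefore not independent, since a low value in 1 organ raises the differences of the other 3. The 4 organs stand in for replicates of preservation, and the FFPE and Frozen library of an organ stand in for replicates of that organ.

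The respiratory chain passes electrons along complexes in the inner mitochondrial membrane, and the proton gradient this builds drives ATP synthase, complex V. Complex I takes electrons from NADH, complex II from succinate, complex III hands them to cytochrome c and complex IV reduces oxygen. Most subunits are encoded in the nucleus and the rest on mitochondrial DNA, apart from complex II, whose subunits are all nuclear. H3K27Ac, histone H3 acetylated at lysine 27, marks active promoters and enhancers. Heart muscle is known for its density of mitochondria.

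Total counts per library lay between 4404789 and 6164562, and all 82 genes had counts and were tested. The subunit genes together received between 1652 and 3896 CPM per library. The defining markers of neurons, cardiomyocytes, nephron and hepatocytes (8 genes each) had their highest median level in the labelled organ in both FFPE and Frozen libraries, and none was at 0 in any library. The interquartile range over all genes was 3.32 in the Frozen heart library and 3.25 in the Frozen liver library, against 2.35 to 2.66 in the other 6, so both stand apart. Reads over mitochondrial genes took 12.7% to 36.0% of the FFPE libraries and 4.52% to 5.62% of the Frozen libraries. Whether a lower value reflects fewer cells that carry the mark or less of the mark per cell cannot be told apart in whole tissue. Of the 71 subunit genes, 23 overlap another annotated gene, so reads of the overlap may be shared.

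H3K27Ac over the subunit genes was highest in Frozen liver and Frozen heart, with medians over the 71 genes of 5.56 and 5.54 log2 CPM, and lowest in brain, with medians of 4.50 in the FFPE and 4.55 in the Frozen library. Over all genes the medians lay between 4.25 and 4.40 in the 8 libraries. The brain library was the lowest of the 4 FFPE libraries for 42 of the 71 subunit genes and the lowest of the 4 Frozen libraries for 68, where 28% and 26.8% of all genes had brain lowest. The heart library was the highest of the 4 FFPE libraries for 39 genes and of the 4 Frozen libraries for 43, where 24.5% and 26.3% of all genes had heart highest. Liver was highest for 18 genes among FFPE libraries and 25 among Frozen libraries, where the shares of all genes were 26.7% and 24.5%. Brain was lowest in both preservations for 42 of the 71 genes, where 15.4% of all genes were, and heart highest in both for 29, where 14.4% were.

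**Figure D1:**
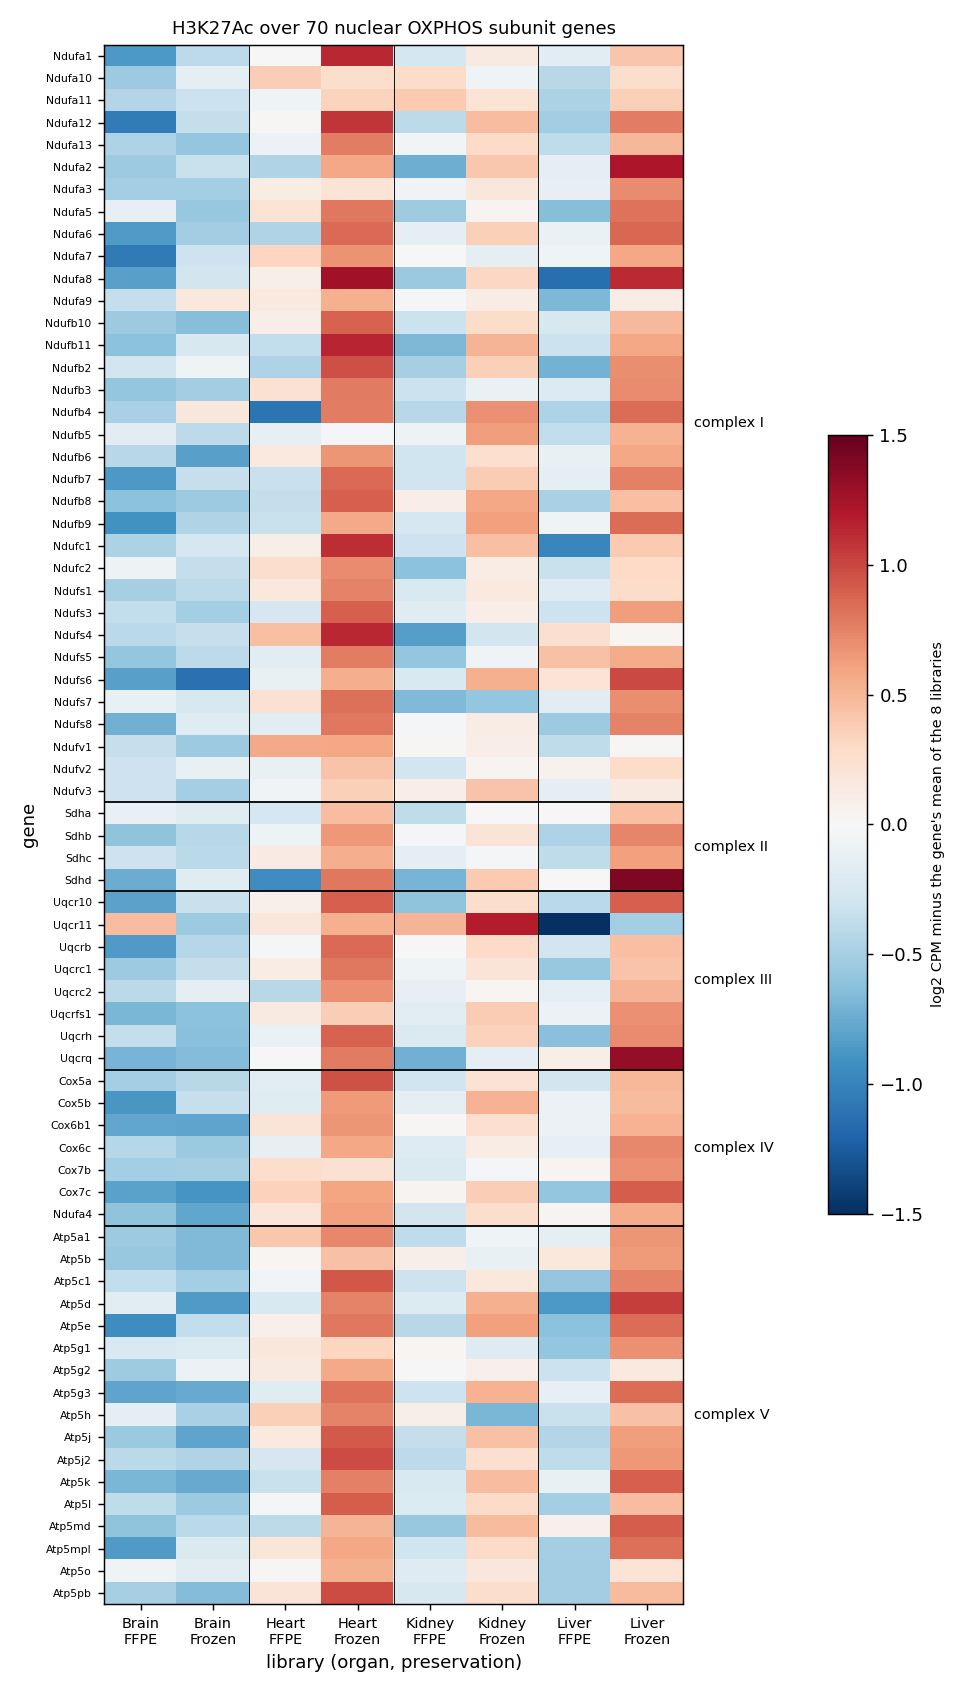
H3K27Ac over 70 of the 71 subunit genes (rows, grouped by complex) in the 8 libraries (columns), as log2 CPM minus the mean of the gene's 8 values; values beyond the ends of the colour scale take its end colours. The brain columns are mostly blue and the Frozen heart and Frozen liver columns mostly red in all 5 complexes.

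Because H3K27Ac marks promoters, the promoters of the subunit genes were read for the motifs of factors known to act on mitochondrial genes. The RefSeq table of build GRCm38.p6 held a promoter, 250 bases before to 50 bases after the gene start, for 60 of the 71 subunit genes. The letters GCGCATGC of the NRF1 motif stood on either strand in 15% of these 60 promoters and in 2.80% of all 27025 promoters in the table. AAGATGGC, for YY1, was present in 15% of subunit promoters and 2.88% of all promoters. CCGGAAGT, for ETS factors such as GABPA, was present in 6.67% and 4.00%, and TCAAGGTCA, for the estrogen-related receptors (ERR), in 3.33% and 0.407%. GGGCGGG, for SP1, was found in 33.3% and 25.8%, and the CCAAT box in 41.7% and 37.9%. At least one of the NRF1, ETS and YY1 motifs stood in 35% of subunit promoters and 9.15% of all promoters. None of these motifs contains another.

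The subunit promoters had a median GC content of 58.8%, against 52.7% over all promoters, and a median of 19.5 CpG (C followed by G), against 7. The NRF1, ETS and SP1 letters contain CpG, and the motif shares above were not matched for GC or CpG content. Of the 60, 18 (30%) had the start of a gene on the opposite strand within 1000 bases upstream, against 11.4% of all promoters. Sdhd lies 52 bases from Timm8b, Ndufa7 lies 10 bases from Rps28 and Ndufs3 lies 19 bases from Kbtbd4. For such pairs the reads at a shared start cannot be assigned to one gene from these values.

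Promoters of 6 subunit genes with the called differences described below are printed 5′ to 3′ in the direction of the gene, with the motif match in capitals. They are examples that hold both a match and a call, and whether a match goes with a call was not tested. Promoters of other called genes, among them Ndufb4, Ndufa12, Cox7c, Cox6b1, Uqcrfs1 and Atp5b, held none of the NRF1, ETS, YY1 and ERR letters. Ndufs6, Ndufs4 and Ndufs7 have the YY1 letters 33, 35 and 24 bases after the start. Ndufa8 has the NRF1 letters on the opposite strand, and Sdhd and Atp5g3 have the ERR letters on the opposite strand.
Ndufs6 (chr13:73328433-73328732, minus strand): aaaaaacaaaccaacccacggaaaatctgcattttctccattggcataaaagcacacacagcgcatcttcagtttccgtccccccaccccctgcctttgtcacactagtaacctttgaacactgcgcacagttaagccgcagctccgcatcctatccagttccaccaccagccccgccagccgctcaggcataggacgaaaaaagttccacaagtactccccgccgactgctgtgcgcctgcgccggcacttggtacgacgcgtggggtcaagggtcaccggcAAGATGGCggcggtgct
Ndufs4 (chr13:114388045-114388344, minus strand): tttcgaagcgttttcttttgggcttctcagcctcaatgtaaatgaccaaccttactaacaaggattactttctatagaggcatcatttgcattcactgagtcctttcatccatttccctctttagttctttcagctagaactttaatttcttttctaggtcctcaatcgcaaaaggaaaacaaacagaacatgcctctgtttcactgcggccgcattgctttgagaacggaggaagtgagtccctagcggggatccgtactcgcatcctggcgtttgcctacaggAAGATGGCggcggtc
Ndufs7 (chr10:80249199-80249498, plus strand): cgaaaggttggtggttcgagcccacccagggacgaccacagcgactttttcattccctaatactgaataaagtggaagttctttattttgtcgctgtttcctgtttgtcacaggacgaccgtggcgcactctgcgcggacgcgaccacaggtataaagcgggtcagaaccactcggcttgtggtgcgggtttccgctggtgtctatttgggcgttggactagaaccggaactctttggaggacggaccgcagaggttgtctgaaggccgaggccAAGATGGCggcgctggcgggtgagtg
Ndufa8 (chr2:36049289-36049588, minus strand): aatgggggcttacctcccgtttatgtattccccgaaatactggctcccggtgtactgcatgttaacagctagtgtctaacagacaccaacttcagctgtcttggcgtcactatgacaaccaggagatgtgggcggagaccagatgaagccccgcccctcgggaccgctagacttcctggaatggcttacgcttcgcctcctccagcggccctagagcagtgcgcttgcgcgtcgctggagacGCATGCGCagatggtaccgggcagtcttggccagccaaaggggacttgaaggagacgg
Sdhd (chr9:50603800-50604099, minus strand): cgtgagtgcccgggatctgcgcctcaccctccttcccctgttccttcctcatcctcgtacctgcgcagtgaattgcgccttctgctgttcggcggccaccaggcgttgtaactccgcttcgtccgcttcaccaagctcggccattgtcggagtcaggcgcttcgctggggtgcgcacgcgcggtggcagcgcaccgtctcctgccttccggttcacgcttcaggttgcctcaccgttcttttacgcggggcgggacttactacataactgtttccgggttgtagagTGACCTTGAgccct
Atp5g3 (chr2:73911277-73911576, minus strand): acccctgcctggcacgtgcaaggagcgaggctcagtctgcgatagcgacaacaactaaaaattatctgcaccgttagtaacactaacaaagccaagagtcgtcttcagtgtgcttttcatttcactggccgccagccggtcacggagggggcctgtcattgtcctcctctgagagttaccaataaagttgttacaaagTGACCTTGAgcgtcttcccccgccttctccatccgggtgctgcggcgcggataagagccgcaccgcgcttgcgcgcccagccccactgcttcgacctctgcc

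H3K27Ac over the respiratory chain genes was lower in brain. Of the 71 subunit genes, 32 (45.1%) fell in brain relative to the mean of heart, kidney and liver and none rose, where 13.6% of all genes fell and 8.73% rose. At an unadjusted p under 0.05, limma put 52 of the 71 lower and 0 higher, where 19.5% of all genes were lower and 14.3% higher. The median difference of the subunits was -0.66 on the log2 scale, against 0.04 over all genes, and all 71 differences were negative. Among genes in the level range that holds the middle 63 subunits (mean 3.73 to 6.02 log2 CPM), 18.1% fell, against 46.0% of those 63. By complex, 14 of 35 genes of complex I, 1 of 4 of complex II, 5 of 8 of complex III, 5 of 7 of complex IV and 7 of 17 of complex V fell. The medians were -0.60, -0.55, -0.71, -0.81 and -0.68 for complexes I to V.

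In complex I the brain differences reached core and accessory subunits. Ndufs6, an accessory subunit that binds zinc, stood at 3.89 and 3.59 log2 CPM in FFPE and Frozen brain, against a range of 4.48 to 5.70 with a median of 5.08 in the 6 libraries of the other organs. Both brain libraries lay below all others, with a difference of -1.29 ± 0.25 (SE, limma adjusted p = 0.000234). It was called under 14 of 15 alternative settings. The electron-entry core subunits Ndufv1 and Ndufs1 had smaller differences, -0.60 ± 0.22 for Ndufv1 and -0.59 ± 0.20 for Ndufs1 (SE). Their calls held under only 3 and 6 of the 15 settings. The accessory subunits Ndufa12, Ndufa7 and Ndufa6 fell by 0.94, 0.92 and 0.91 on the log2 scale. Of the Ndufb genes, which encode accessory subunits of the membrane arm, 6 of 10 fell.

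The other complexes followed in brain. In complex II, Sdhb, the iron-sulfur subunit of succinate dehydrogenase, fell by 0.68 on the log2 scale, whereas Sdha, the flavoprotein, had 5.38 and 5.31 log2 CPM in FFPE and Frozen brain and 5.11 to 5.95 with a median of 5.50 elsewhere and was not called. In complex III, Uqcrfs1, the Rieske iron-sulfur protein, stood at 4.75 and 4.82 log2 CPM in FFPE and Frozen brain, against 5.26 to 6.12 with a median of 5.69 elsewhere. Its difference was -0.87 ± 0.22 (SE, limma adjusted p = 0.00333), with no overlap. Uqcrq, Uqcrb, Uqcr10 and Uqcrc1 also fell in brain, by 0.90, 0.85, 0.75 and 0.60.

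In complex IV, Cox7c, a small membrane subunit, stood at 3.91 and 3.84 log2 CPM in FFPE and Frozen brain, against 4.14 to 5.63 with a median of 5.08 elsewhere. The difference was -1.12 ± 0.26 (SE, limma adjusted p = 0.00177) and both brain libraries were below the other 6. Cox6b1, which faces the intermembrane space, had 3.42 and 3.41 log2 CPM in FFPE and Frozen brain, against 4.12 to 4.87 with a median of 4.43 elsewhere. It differed by -1.05 ± 0.27 (SE, limma adjusted p = 0.00374). Ndufa4, Cox5b and Cox5a fell by 0.92, 0.81 and 0.62, while Cox7b, at -0.67, had an adjusted p of 0.0756 in limma and was not called. In complex V, Atp5g3, 1 of 3 genes for the identical c subunit of the rotor ring, stood at 4.77 and 4.81 log2 CPM in FFPE and Frozen brain, against 5.25 to 6.40 with a median of 5.76 elsewhere. The difference was -1.03 ± 0.22 (SE, limma adjusted p = 0.000705). The other c-ring genes Atp5g1 and Atp5g2 had differences of -0.29 and -0.41 and were not called, and whether the 3 genes differ from each other was not tested. Atp5b, the catalytic beta subunit, fell by 0.83, and Atp5k, Atp5j and Atp5e by 0.96, 0.89 and 0.87.

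The brain difference was also read within each preservation. Within the FFPE libraries the median difference of the 71 genes between brain and the mean of the other organs was -0.37, with 61 negative, and within the Frozen libraries it was -0.99, with all 71 negative. A term for the brain difference in FFPE minus that in Frozen tissue, added to the fit after seeing the data and leaving 2 residual degrees of freedom, had a median of 0.60 over the 71 genes, against -0.004 over all genes. In limma 0 of the 71 passed an adjusted p under 0.05, where 0.00742% of all genes were higher and 0% lower. At an unadjusted p under 0.05 it put 13 of the 71 higher and 0 lower, where 3.87% of all genes were higher and 1.27% lower, and without the variance trend 2 higher and 0 lower. Without the Frozen brain library the median of the subunits in brain was -0.37, against -0.005 over all genes. Without the FFPE brain library it was -0.99, against 0.08, so the larger difference was the one among Frozen libraries. The brain libraries themselves were close, with medians over the 71 genes of 4.50 (FFPE) and 4.55 (Frozen) log2 CPM. In heart, kidney and liver the median over these genes was higher in the Frozen than in the FFPE library. Without the variance trend 5 subunits fell, where 1154 of all genes did. With total counts as library size 5 subunits fell, where all genes split into 3404 higher and 1710 lower, against 2353 and 3677 with the deposited scaling. Across all genes, which are not independent replicates, the brain difference and the mean level had a Spearman correlation of -0.41, and across the 71 subunits, which share the same libraries, -0.01.

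**Figure D2:**
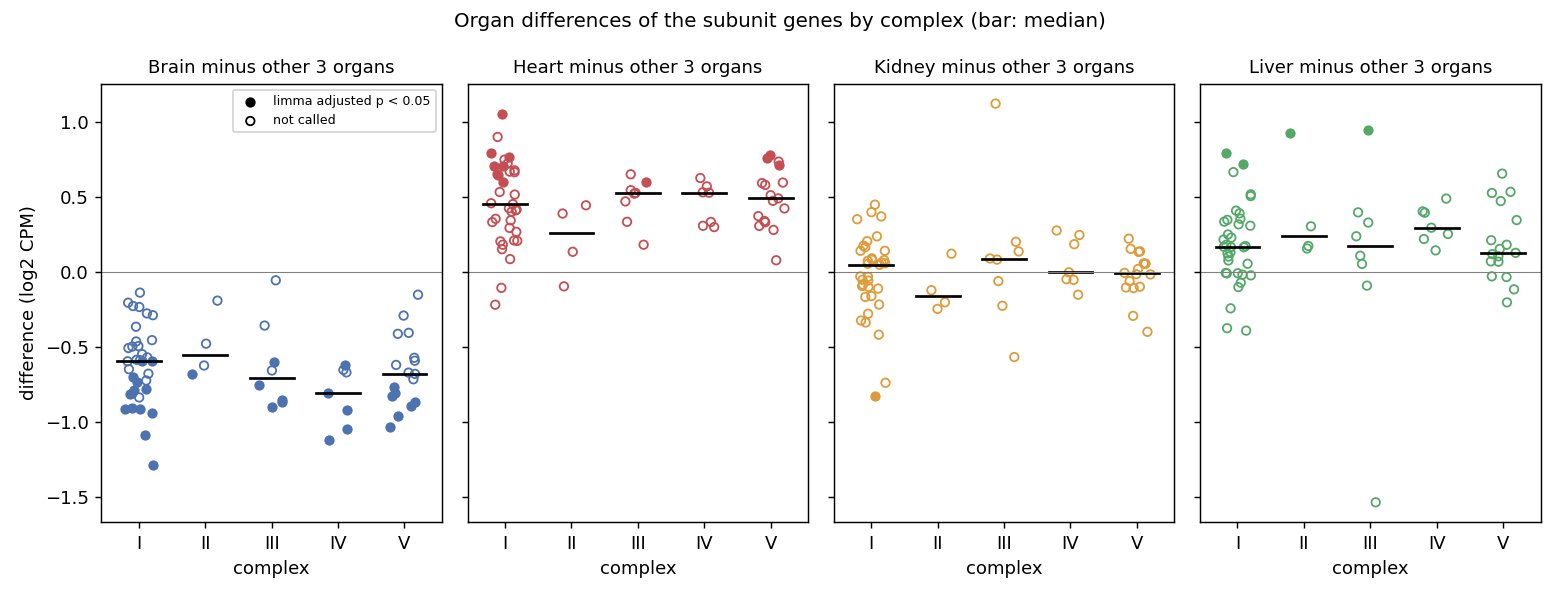
Difference in log2 CPM between each organ and the mean of the other 3 organs for the 71 subunit genes, by complex; each point is a gene, filled where limma's adjusted p was under 0.05, and bars are medians. In brain every point is below 0, in heart 68 of 71 are above 0, and in kidney the points centre near 0.

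Heart showed the opposite direction. Brain is among the organs that heart was set against, so low brain values by themselves raise the heart difference. How much they raised it was not tested. Of the 71 subunit genes, 12 (16.9%) rose in heart relative to the mean of the other organs and none fell, where 9.42% of all genes rose and 7.31% fell. At an unadjusted p under 0.05, limma put 32 of the 71 higher and 0 lower, where 15.2% of all genes were higher and 14.3% lower. The median difference was 0.47, against -0.04 over all genes, and 68 of 71 differences were positive. Among genes in the level range of the subunits 12% rose, against 15.9% of the 63 subunits in that range, so the share of calls was near that of genes of like level. The calls were 8 of 35 in complex I, 1 of 8 in complex III and 3 of 17 in complex V, with 0 in complexes II and IV, where limma put 0 of 4 and 4 of 7 genes higher at an unadjusted p under 0.05. The complex medians were 0.45, 0.26, 0.52, 0.53 and 0.49 for complexes I to V, and with total counts as library size that of complex II became -0.07, where the median of all genes was -0.37. Under that scaling 1 subunit rose, with 1139 of all genes higher and 4516 lower, against 2538 and 1970 with the deposited scaling, and without the variance trend 0 rose.

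In complex I, 4 of the 7 nuclear core subunits rose in heart, where 9.42% of all genes did. Of the accessory subunits, 0 of 12 Ndufa genes, 1 of 10 Ndufb genes and 3 of 6 others rose, and whether these shares differ was not tested. Ndufs4, an accessory subunit needed for assembly of the NADH-binding part, stood at 5.52 and 6.21 log2 CPM in FFPE and Frozen heart, against 4.24 to 5.31 with a median of 4.76 in the other 6 libraries. Both heart libraries lay above all others, and the difference was 1.06 ± 0.23 (SE, limma adjusted p = 0.00124). Ndufv1, the core subunit that binds NADH, had 5.86 and 5.87 log2 CPM in FFPE and Frozen heart, against 4.74 to 5.39 with a median of 5.13 elsewhere. Its groups did not overlap, with a difference of 0.76 ± 0.22 (SE, limma adjusted p = 0.0128). Ndufs7 and Ndufs1, also core subunits, rose by 0.71 and 0.60, and the accessory subunit Ndufc1 by 0.80. The FFPE heart values of Ndufs7, Ndufs1 and Ndufc1 overlapped the other organs.

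Complex III had 1 call, Uqcrc1, a core protein of the matrix side, with 5.95 and 6.63 log2 CPM in FFPE and Frozen heart, against 5.27 to 6.27 with a median of 5.63 elsewhere. These values overlapped and the difference was 0.60 ± 0.21 (SE, limma adjusted p = 0.0488). In complex V the genes were Atp5pb and Atp5j, of the peripheral stalk, and Atp5a1, the alpha subunit of the catalytic head. Atp5pb had 5.86 and 6.64 log2 CPM in FFPE and Frozen heart, against 5.01 to 6.13 with a median of 5.30 elsewhere, a difference of 0.78 ± 0.22 (SE, limma adjusted p = 0.0129). The annotated span of Atp5j overlaps that of Gabpa, a transcription factor gene, so its reads may be shared. The heart calls rested on few libraries. Without the FFPE brain library 27 subunits rose and without the Frozen liver library 23, where 3077 and 2984 of all genes did. Without the Frozen brain, FFPE kidney, Frozen kidney or FFPE liver library 6, 7, 4 and 5 rose. Of all genes 2297, 2196, 1745 and 2412 rose in these fits, against 2538 with every library. The medians within preservations were 0.38 among FFPE and 0.61 among Frozen libraries, against -0.02 over all genes in both. They are also the medians when the Frozen or the FFPE heart library is left out. Endothelial markers (5 of 5 measured, none at 0) were also highest in heart, with medians of 6.45 and 6.72 log2 CPM in FFPE and Frozen heart, against 4.77 to 6.01 elsewhere, and their part in the heart result was not tested.

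Kidney and liver showed few single calls. In kidney no subunit rose and 1 of 71 (1.41%) fell, where 3.19% of all genes rose and 2.03% fell, and at an unadjusted p under 0.05 limma put 0 higher and 3 lower, where 7.53% of all genes were higher and 7.73% lower. The gene was Ndufs7, a core iron-sulfur subunit, at 4.42 and 4.50 log2 CPM in FFPE and Frozen kidney, against 4.84 to 5.90 with a median of 5.13 elsewhere. Both kidney libraries lay below the other 6, with a difference of -0.83 ± 0.23 (SE, limma adjusted p = 0.0286). A tRNA gene lies within the annotated span of Ndufs7. The call was lost without the FFPE kidney, Frozen kidney, FFPE brain, Frozen heart or Frozen liver library, with adjusted p between 0.0585 and 0.672 in limma, and held without each of the other 3. It was also lost without the variance trend (adjusted p = 0.274) and with total counts as library size (adjusted p = 0.138).

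In liver 4 of 71 subunits (5.63%) rose and 0 fell, where 11.2% of all genes rose and 9.73% fell. At an unadjusted p under 0.05 limma put 10 of the 71 higher and 1 lower, where 15.3% of all genes were higher and 16.0% lower. The share of rises was below that of all genes, and the median difference was 0.17, against -0.06 over all genes. Uqcrq, a small subunit of complex III near ubiquinone, stood at 5.50 and 6.73 log2 CPM in FFPE and Frozen liver, against 4.69 to 6.19 with a median of 5.01 elsewhere. The difference was 0.94 ± 0.23 (SE, limma adjusted p = 0.00221), and the values overlapped through the Frozen heart library. Uqcrq overlaps Gdf9 in the annotation. Sdhd, a membrane anchor of complex II, had 3.70 and 5.11 log2 CPM in FFPE and Frozen liver, against 2.78 to 4.50 with a median of 3.27 elsewhere, and rose by 0.92 ± 0.31 (SE, limma adjusted p = 0.0284). Ndufs6 and Ndufa2 of complex I rose by 0.79 and 0.72. Without the variance trend 0 subunits rose in liver, where 1595 of all genes did. Without the Frozen brain library 1 rose and without the FFPE brain library 7, where 2780 and 3394 of all genes did. Without either kidney library 2 rose, where 2749 (FFPE left out) and 2363 (Frozen left out) of all genes did. Without the Frozen liver library the median of the subunits was 0.003, against -0.01 over all genes. Within preservations the liver median was 0.003 among FFPE libraries and 0.47 among Frozen libraries. Erythroid markers (4 of 5 measured, none at 0) had medians of 4.34 and 4.13 log2 CPM in FFPE and Frozen liver, against 2.75 to 3.50 elsewhere, and their part in the liver result was not tested.

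**Figure D3:**
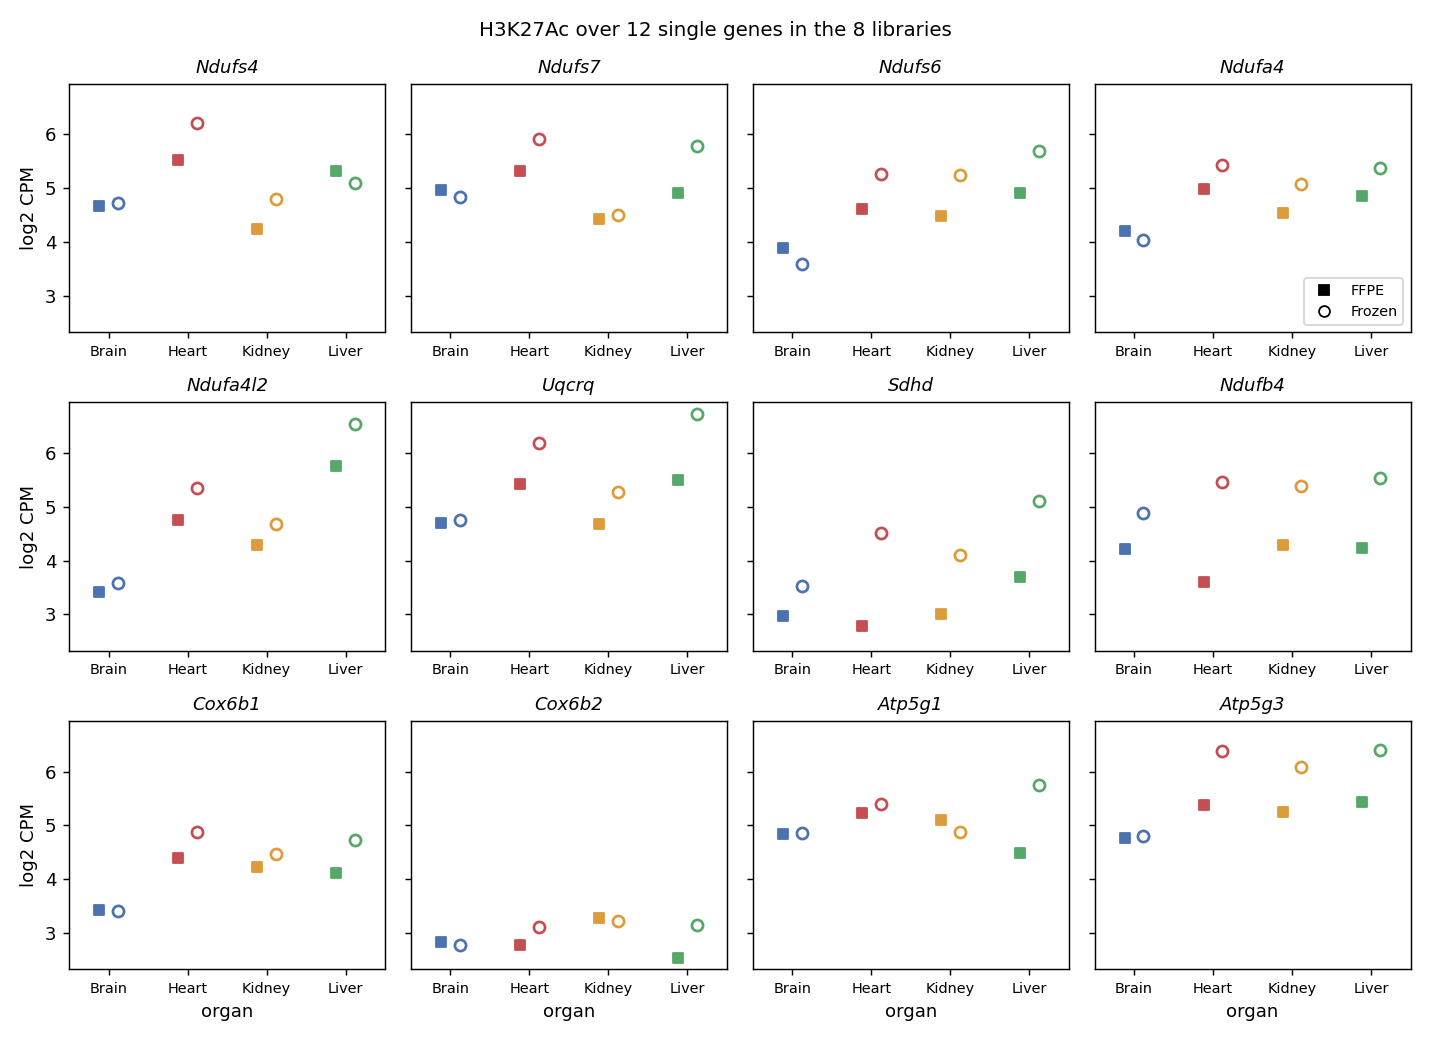
log2 CPM of 12 member genes in the 8 libraries, with FFPE as filled squares and Frozen as open circles for each organ. Ndufs4 is highest in heart, Ndufs7 lowest in kidney, Ndufa4l2 highest in liver, and all FFPE values of Ndufb4 lie below all its Frozen values.

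H3K27Ac over the subunit genes was lower in FFPE than in Frozen tissue, though hardly so in brain, where the median difference was -0.05. Across organs, 16 of 71 subunits (22.5%) fell in FFPE and none rose, where 1.91% of all genes fell and 2% rose. At an unadjusted p under 0.05 limma put 42 of the 71 lower and 0 higher, where 8.83% of all genes were lower and 7.14% higher. The median difference was -0.53, against 0.02 over all genes, and all 71 were negative. Among genes in the level range of the subunits 2.26% fell, against 22.2% of the 63 subunits in that range, and the median was -0.03 against -0.53. By complex, 11 of 35 in complex I fell, 1 of 4 in complex II, 1 of 8 in complex III, 1 of 7 in complex IV and 2 of 17 in complex V. The medians were -0.48, -0.47, -0.56, -0.43 and -0.60 for complexes I to V, so the medians were close. Complex I, which holds 35 of the 71 subunits, had 11 of the 16 calls, and whether its share differs from the others was not tested. Within complex I, 5 of 10 Ndufb genes, 4 of 12 Ndufa genes and 1 of 7 core genes fell, and whether these shares differ was not tested.

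Ndufb4, an accessory subunit of the membrane arm, stood at 4.22, 3.61, 4.28 and 4.24 log2 CPM in FFPE brain, heart, kidney and liver, against 4.88, 5.47, 5.38 and 5.53 in the Frozen organs in the same order. All FFPE values were below all Frozen values, with means of 4.09 ± 0.32 and 5.31 ± 0.30 (SD, n = 4 organs each) and a difference of -1.23 ± 0.22 (SE, limma adjusted p = 0.000333). It was called in 14 of 15 alternative settings. Ndufa8, an accessory subunit on the intermembrane side, had 2.62, 3.52, 2.87 and 2.30 log2 CPM in FFPE brain, heart, kidney and liver, against 3.16, 4.69, 3.74 and 4.55 in the Frozen organs. Its FFPE value was below its Frozen value in every organ, although FFPE heart lay above Frozen brain, and the difference was -1.21 ± 0.30 (SE, limma adjusted p = 0.0128). Ndufb11, Ndufb2 and Ndufa12 fell by 1.00, 0.98 and 0.97. The 1 core subunit that fell was Ndufs8, a carrier of iron-sulfur clusters, with a difference of -0.73 ± 0.19 (SE, limma adjusted p = 0.0233).

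In complex II, Sdhd had 2.96, 2.78, 3.01 and 3.70 log2 CPM in FFPE brain, heart, kidney and liver, against 3.53, 4.50, 4.11 and 5.11 in the Frozen organs. The difference was -1.20 ± 0.27 (SE, limma adjusted p = 0.00499), and FFPE liver was the only FFPE value above Frozen brain. In complex III, Uqcr10 fell by 0.86. In complex IV, Cox5b, which holds zinc, fell by 0.64 with a limma adjusted p of 0.0498, next to the threshold. In complex V, Atp5e, the epsilon subunit of the head, and Atp5g3 fell by 0.94 and 0.71. Atp5g3 had 4.77, 5.38, 5.25 and 5.44 log2 CPM in FFPE brain, heart, kidney and liver, against 4.81, 6.38, 6.09 and 6.40 in the Frozen organs, so that its brain values nearly coincided.

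The FFPE difference was also read organ by organ. The median FFPE minus Frozen difference of the 71 subunits was -0.05 (brain), -0.72 (heart), -0.50 (kidney) and -0.88 (liver), while the medians over all genes were 0.01, -0.02, 0.02 and 0.04. FFPE lay below Frozen for 40 genes (brain), 69 (heart), 64 (kidney) and 69 (liver). Of all 26944 genes, 13336, 13795, 13057 and 12896 did in the same order. Among the 70 subunits with at least 40 counts in the pair, brain had 0 at least 2-fold lower in FFPE, heart 18, kidney 6 and liver 22, where 1.83%, 3.86%, 2.76% and 6.68% of all such genes were. The exact 95% interval of the ratio of the 2 counts, which covers counting error only, lay below equality for 12 of 71 genes (brain), 60 (heart), 47 (kidney) and 65 (liver), where 13.5%, 26.8%, 17.7% and 27.9% of all genes did. It lay above equality for 2, 0, 2 and 0 of the 71, where 17%, 18.6%, 19.7% and 24% of all genes did. The same added term, fitted for each organ in turn, tested whether the FFPE difference in that organ differed from its mean in the other 3. Besides brain, given above, its median over the 71 genes was -0.24 (heart), 0.11 (kidney) and -0.47 (liver), against -0.06, 0.04 and -0.01 over all genes. In limma 0 of the 71 passed an adjusted p under 0.05 in any organ. The shares of all genes that passed were 0.0186% higher and 0.00371% lower in heart, 0% either way in kidney, and 0% higher and 0.00742% lower in liver. At an unadjusted p under 0.05 it put 0 of the 71 higher or lower in heart and kidney, and 6 lower and 0 higher in liver, where 4.51% of all genes were lower and 3.75% higher. Without the variance trend it put 3 lower in liver and 0 in heart and kidney. The count of 16 rose to 35 without either brain library, and was 5 and 4 without the FFPE or Frozen heart library, 6 and 5 without the FFPE or Frozen kidney library, and 4 and 3 without the FFPE or Frozen liver library. Of all genes 1297 and 1287 fell without the FFPE or Frozen brain library and 138 to 167 without any other, against 515 with every library. Without the variance trend limma called 0 subunits, with 0 higher and 29 lower at an unadjusted p under 0.05, where 7.06% of all genes were higher and 5.43% lower. With total counts as library size 35 fell, where all genes split into 449 higher and 1448 lower, against 539 and 515 with the deposited scaling.

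**Figure D4:**
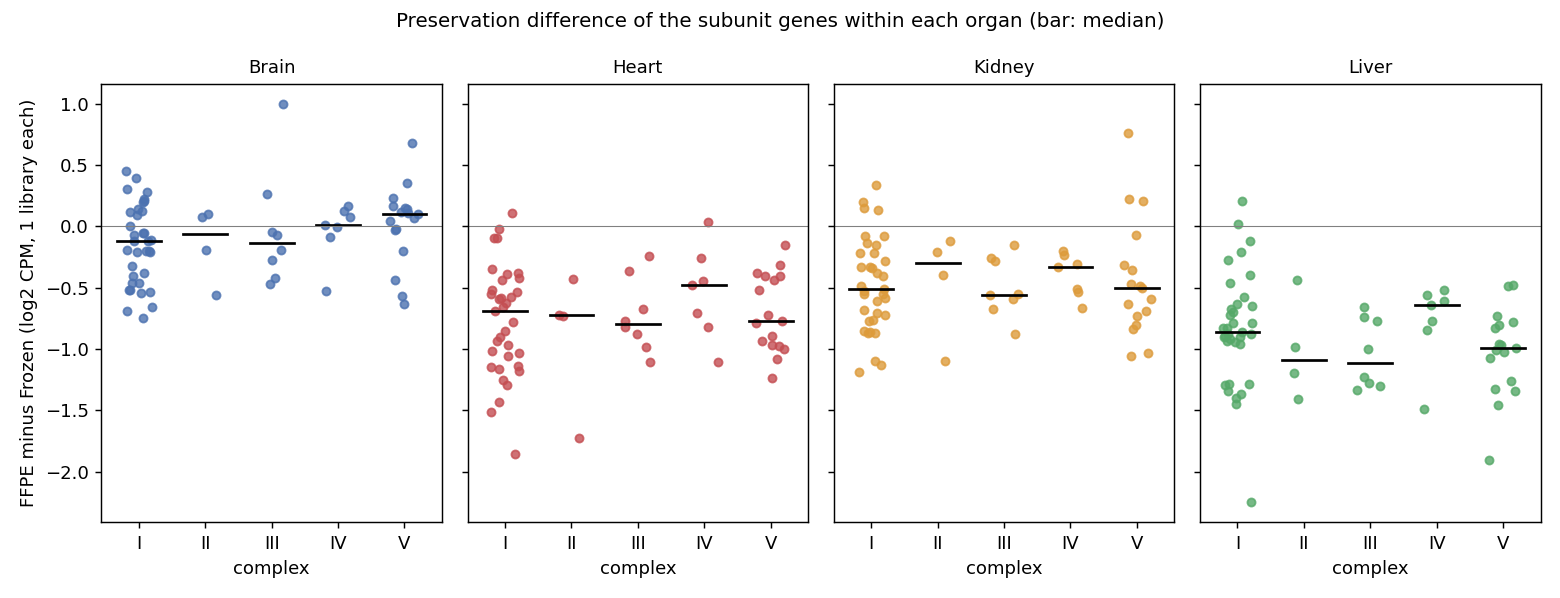
FFPE minus Frozen difference in log2 CPM of the 71 subunit genes within each organ, by complex; each point is a gene in 1 pair of libraries and bars are medians. The brain points centre near 0, and most heart, kidney and liver points lie below 0.

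Of the 11 genes that share the family names but are not ordinary subunits, 2 were called in any comparison. Ndufa4l2, a paralog of Ndufa4, had 5.76 and 6.53 log2 CPM in FFPE and Frozen liver, against 3.42 to 5.34 with a median of 4.48 elsewhere, a rise of 1.80 ± 0.24 (SE, limma adjusted p = 3.59e-07). In brain it had 3.42 and 3.59 log2 CPM in the FFPE and Frozen libraries, against 4.28 to 6.53 with a median of 5.04 elsewhere, a difference of -1.72 ± 0.24 (SE, limma adjusted p = 1.53e-06). Both calls held in all 15 alternatives, but they are not independent, because liver and brain each enter the mean that the other was set against. The annotated span of Ndufa4l2 overlaps that of Shmt2, a mitochondrial serine hydroxymethyltransferase, so its reads may belong to either gene. Ndufa4 itself differed by 0.40 in liver and was not called there.

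The testis isoforms Cox6b2, Cox7b2 and Cox8c were not called in any comparison. Cox6b2 lay between 2.54 and 3.29 log2 CPM in the 4 FFPE libraries and between 2.77 and 3.22 in the 4 Frozen libraries, and Cox7b2 and Cox8c had 7 to 33 counts per library. The 7 copies had 3 to 47 counts per library, and reads of a near-identical parent gene could be placed on them, so their values are uncertain. Of these, Ndufb4b, within the span of Dock8, was called lower in brain at -1.38 ± 0.47 (SE, limma adjusted p = 0.0301), from 5 and 17 counts in FFPE and Frozen brain and 13 to 41 in the other libraries. Among the ordinary subunits, Uqcr11 had 1 to 14 counts per library, 50 in all, and no difference was detectable in it at this depth.

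The rest of the pathway was read from lists of genes outside the symbol rule. Of 9 complex IV genes with isoforms by tissue, 4 rose in heart and 0 fell, where 9.42% of all genes rose, and they were the isoforms known from heart and skeletal muscle Cox6a2, Cox8b and Cox7a1, together with Cox4i2, known from lung. Cox6a2 had 5.45 and 5.94 log2 CPM in FFPE and Frozen heart, against 1.36, 1.76 and 2.41 in the FFPE libraries and 1.15, 1.78 and 2.25 in the Frozen libraries of the other organs. The difference of 3.91 ± 0.38 (SE, limma adjusted p = 5.41e-09) was larger than that of any subunit gene in heart. The counterparts known from liver and other tissues, Cox6a1, Cox7a2 and Cox8a, were lower in FFPE by 0.92, 0.84 and 0.82, and Cox7a2, Cox8a, Cox4i1 and Cox7a2l were lower in brain. In a fit without the variance trend 0 of the 9 were called in FFPE and 1 in brain, and with total counts as library size 0 were called in brain, while 3 rose in heart under either setting. In kidney 1 of the 9 fell and in liver 2 fell, where 2.03% and 9.73% of all genes fell. Cox6a2 was among them in both, but its high heart values enter the mean that kidney and liver were each set against. Those calls therefore do not show that it is low in kidney or liver beside the other organs without heart.

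Of 46 assembly factors, 8 (17.4%) fell and 0 rose in brain with a median of -0.39, where 13.6% of all genes fell. In liver 7 (15.2%) rose and 0 fell with a median of 0.23, where 11.2% of all genes rose, so both shares were near those of all genes. In FFPE 3 (6.52%) fell and 0 rose with a median of -0.33, where 1.91% of all genes fell. A fit without the variance trend called 2 lower in brain, 3 higher in liver and 0 in FFPE, and with total counts as library size 2 fell and 1 rose in brain and 8 fell in FFPE. With total counts as library size the heart median of these factors turned from 0.14 to -0.19, where the median of all genes was -0.37. Coa6, for copper delivery to complex IV, had differences of -1.05 in brain and 1.02 in liver. In heart 1 rose, Cox17, the copper chaperone, at 1.16, and in kidney Coa3 rose by 0.90 and Coa7 fell by 1.00. Of 16 genes of pyruvate oxidation and the citric acid cycle, 3 rose in heart, 3 fell in brain, 4 rose in liver and 1 fell in FFPE, where 9.42%, 13.6%, 11.2% and 1.91% of all genes did. The counts were 0, 0, 1 and 0 without the variance trend, and with total counts as library size 1, 1, 2 and 3, where the heart median of the list was -0.07, against 0.26 with the deposited scaling. Cs, citrate synthase, had 6.31 and 6.99 log2 CPM in FFPE and Frozen heart and rose by 1.02 ± 0.21 (SE, limma adjusted p = 0.000672). Of 14 genes of cytochrome c and coenzyme Q, 4 fell in brain, 1 rose in heart, 1 rose in liver and 2 fell in FFPE, where 13.6%, 9.42%, 11.2% and 1.91% of all genes did. None of the 14 passed without the variance trend, and with total counts as library size 1 fell in brain, 0 rose in heart and 4 fell in FFPE, where the medians of the list were -0.02 in heart and -0.03 in liver, against 0.31 and 0.02 with the deposited scaling. Coq8a, a kinase-like protein of coenzyme Q synthesis, was the gene that rose in heart and in liver and it fell by 0.87 in brain.

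Of 15 regulators of mitochondrial genes, 2 fell in brain, 1 rose in heart, and 1 rose and 1 fell in liver, shares near or below those of all genes (13.6%, 9.42%, 11.2% and 9.73%). None of the 15 passed without the variance trend, and with total counts as library size 0 fell and 1 rose in brain, 0 rose in heart and 2 rose in kidney. Esrra fell by 0.74 in brain. Esrrb rose by 0.77 in heart and fell by 0.92 in liver. None of the 15 passed the test in FFPE, where limma put 1 higher and 0 lower at an unadjusted p under 0.05. The inhibitor of ATP synthase, Atpif1, was not called in any comparison and had a difference of -0.58 in FFPE, with an adjusted p of 0.129 in limma. Of 16 genes in common use as controls, 5 fell in brain, 4 rose in heart, 3 rose in liver and 0 passed the test in FFPE, where 13.6% of all genes fell in brain, 9.42% rose in heart and 11.2% rose in liver. The counts were 2, 0 and 3 without the variance trend, and 4, 1 and 3 with total counts as library size. In FFPE limma put 1 higher and 3 lower at an unadjusted p under 0.05. Their medians were -0.49 in brain, 0.35 in heart, 0.17 in liver, -0.17 in kidney and -0.23 in FFPE. The subunit medians in brain, heart, liver, kidney and FFPE were -0.66, 0.47, 0.17, -0.003 and -0.53. The medians of the control genes kept their sign under every scaling tried, the smallest being 0.03 in heart with total counts as library size. Their part in the organ results was not tested.

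The 13 subunits encoded on mitochondrial DNA moved the other way with preservation. Mitochondrial DNA carries no histones, so reads there do not come from acetylated nucleosomes. These genes took 13.3%, 30.9%, 15.8% and 10.9% of the counts in FFPE brain, heart, kidney and liver, against 4.38%, 4.27%, 3.56% and 4.15% in the Frozen organs in that order. Every FFPE share was above every Frozen share. The median FFPE minus Frozen difference of the 13 genes was 1.79 (brain), 3.13 (heart), 2.40 (kidney) and 1.19 (liver) on the log2 scale. In limma 6 of the 13 rose in FFPE and 0 fell, with a median of 2.06, where 2% of all genes rose. The count was 9 without the variance trend, 10 with total counts as library size, 11 with libraries set to the same median and spread, 12 with mitochondrial genes left out of the library size, 6 with quantile normalization and 5 with a prior count of 2, and the median stayed above 0 under every scaling tried, between 0.32 and 2.90. The nuclear medians in the same organs were -0.05, -0.72, -0.50 and -0.88, so liver had the smallest mitochondrial and the largest nuclear difference. The part of the mitochondrial reads in the nuclear result was not tested. With mitochondrial genes left out of the library size 11 of 71 nuclear subunits fell in FFPE, with a median of -0.42 against 0.13 over all genes.

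**Figure D5:**
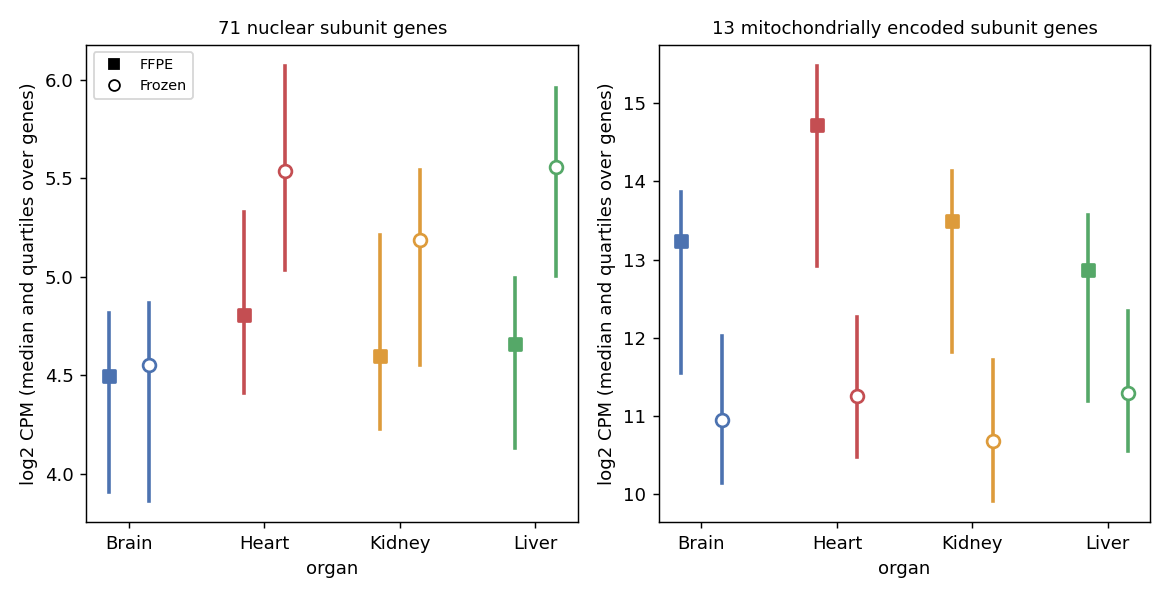
Median (symbol) and quartiles (line) of log2 CPM over 71 nuclear subunit genes (left) and 13 mitochondrially encoded subunit genes (right), with FFPE as filled squares left of Frozen as open circles for each organ. FFPE is below Frozen for the nuclear genes and above Frozen for the mitochondrial genes, and the nuclear medians of the brain libraries, 4.50 and 4.55, nearly coincide.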

How the data were processed

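H3K27Ac ChIP-seq reads were counted per gene by the authors. Per the submitters' processing notes the tools were Bowtie2, featureCounts and limma and the build was mm10. The sources used here do not give versions, the part of a gene that was counted or whether replicates were merged. The deposited values are log2 CPM with a prior count of 0.5, and reversing that step gave whole counts, within 0.001, for 100% of values. The 4404789 to 6164562 counts per library, with a median of 87 to 119 per gene, set the precision.

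Of 27179 genes, 235 without counts were removed. limma 3.58.1 (R 4.3.3) fitted organ and preservation as additive terms with a variance trend, leaving 3 residual degrees of freedom, and p-values were adjusted over all 26944 genes by Benjamini-Hochberg. Each column is 1 library per group, and nothing says whether libraries came from separate animals, so p-values measure the spread between these libraries. For each gene limma moves the estimate of spread toward that of genes of like level. A p-value therefore does not rest on the gene's own spread alone. The procedure was also run on simulated counts with known changes, drawn around a common mean profile for all libraries. Apart from those changes, that simulation lacks the organ differences of these libraries. It therefore does not show how far the calls here hold.

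Members and lists were chosen with earlier results of these data known. Named genes were, per comparison and complex, up to 5 called genes with the largest change in each direction, a fixed set of catalytic subunits and paralogs, and up to 3 called genes per other list. Ndufs8, Uqcr11, Cox4i2 and Cox8a in brain fall outside that rule and were chosen after their values were seen. One named gene is not reported here. Alternatives changed the filter, prior count, scaling, variance model and member set, or left out 1 library, and a term for the FFPE difference of 1 organ against the others, with 2 residual degrees of freedom, was added after seeing the data.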

Additional observations from a re-analysis of the deposited data

Results flagged for a closer look

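In 4 subunit genes the FFPE and Frozen counts of different organs differed in opposite directions, with exact 95% intervals of the ratio of counts on opposite sides of equality. Each value comes from 1 pair of libraries, and the intervals cover counting error only. Per organ, 13.5% to 27.9% of all genes had an interval below equality and 17% to 24% above. The share of all genes with intervals on both sides was not counted. The FFPE minus Frozen difference of Atp5b, the catalytic beta subunit, was 0.21 in kidney, -0.41 in heart and -0.48 in liver. That of Atp5d, the delta subunit, whose annotated span overlaps Cbarp, was 0.68 in brain, and it was -1.90 in liver, -0.98 in heart and -0.73 in kidney. For Atp5h, a subunit of the peripheral stalk, it was 0.76 in kidney, -0.38 in heart and -0.78 in liver. Ndufa5, an accessory subunit of complex I, had 0.45 in brain, -1.45 in liver, -0.58 in heart and -0.58 in kidney. A term for the FFPE difference in 1 organ minus its mean in the other 3, added to the limma fit after seeing the data, left none of the 4 genes past the threshold in any organ. It was 1.88 ± 0.43 (SE) for Atp5d in brain, with an adjusted p of 0.133 in limma, and -1.56 ± 0.47 in liver, with an adjusted p of 0.340. For Ndufa5 it was 1.32 ± 0.51 in brain and -1.21 ± 0.49 in liver, with adjusted p of 0.791 and 0.526 in limma. For Atp5b and Atp5h the lowest adjusted p of any organ was 0.782 and 0.616, both in liver.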

How the results depend on the processing

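No called named gene reversed under the 15 alternatives, but many calls were lost. Over genes and alternatives together, calls held in 98 of 150 cases in FFPE, 271 of 375 in brain, 79 of 150 in heart, 8 of 15 in kidney and 52 of 75 in liver. Among the named genes the least steady were Ndufv1 in brain (3 of 15), Uqcrc1, Ndufs1 and Atp5j in heart (4 each), and Atp5g3 in FFPE and Cox5a in brain (5 each). The heart median of complex II changed sign under total counts. A filter of at least 10 counts in 2 libraries and a prior count of 2 left every count of calls within 1.5 times. The counts of calls in FFPE (lower), brain (lower), heart (higher), kidney (lower) and liver (higher) were 16, 32, 12, 1 and 4. Without the variance trend they were 0, 5, 0, 0 and 0, and with total counts as library size 35, 5, 1, 0 and 2. With mitochondrial genes left out of the library size the heart count was 5 and the liver count 1, with libraries set to the same median and spread the heart count was 4 and the kidney count 2, and with quantile normalization the kidney count was 2. The share of higher calls over all genes in liver also moved, with 2494 higher and 3646 lower without mitochondrial genes in the library size, against 3019 and 2621.

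Leaving out 1 library gave 3 to 35 calls in FFPE, 2 to 47 in brain, 0 to 27 in heart, 0 to 3 in kidney and 0 to 7 in liver. Heart medians then ranged from 0.35 to 0.67 in complex III, 0.41 to 0.64 in complex IV and 0.38 to 0.65 in complex V, and kidney medians from -0.11 to 0.12 in complex IV and -0.12 to 0.11 in complex V.

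With total counts the heart medians of complexes I to V were 0.12, -0.067, 0.20, 0.20 and 0.16, and the kidney medians of complexes I, IV and V were 0.19, 0.14 and 0.13. The median of all genes was then -0.37 in heart and 0.12 in kidney. Without mitochondrial genes in the library size the heart medians of complexes III, IV and V were 0.40, 0.40 and 0.36, and the kidney medians of IV and V 0.10 and 0.0925. With the same median and spread the heart medians of III and IV were 0.41 and 0.39. With quantile normalization the heart median of IV was 0.42, and the kidney medians of IV and V were 0.072 and 0.091. With all members by symbol the heart median of IV was 0.31. The cause of these changes was not tested. No paired analysis was possible because the columns carry no replicate number to block on, while the organ term of the fit sets FFPE against Frozen within organs. Depth limits Uqcr11 and the gene copies most.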
